A study of Mus musculus with 8 samples.

Results

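The basement membrane and network collagens are the collagens that build sheets and nets rather than fibrils. The 10 genes described here are the type IV chains Col4a1, Col4a2, Col4a3, Col4a4, Col4a5 and Col4a6, the type VIII chains Col8a1 and Col8a2, and the type XV and type XVIII collagens Col15a1 and Col18a1. They were taken by symbol from the 23284 symbols listed in each library, and all 10 were found. Their RNA was measured in ID8 IP2, a tumor line derived from the ovarian surface epithelium of C57BL/6 mice and passaged in mice. All lines had received a lentiviral vector for luciferase and mCherry. Notch3IC lines then received a pCCL lentivirus for an HA-tagged intracellular domain of Notch3 (codons 1664 to 2318) with IRES-GFP, an active form of the receptor that needs no ligand. Control lines received the empty pCCL vector. Each of Sets 1 to 4 held 1 Control and 1 Notch3IC line, so that n = 4 libraries per group, and testing after the experiments, described in the methods, pointed to mycoplasma in all ID8 IP2 lines. Total gene counts per library ran from 19013578 to 28208072 for Control and from 15524262 to 27107061 for Notch3IC, the lowest total being that of Notch3IC Set 2.

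Type IV collagen chains join in threes, and the trimers bind each other at their ends to form the net of every basement membrane. Chains of Col4a1 and Col4a2 share a trimer found in nearly all tissues, chains of Col4a5 and Col4a6 share another with a narrower distribution, and Col4a3, Col4a4 and Col4a5 form the trimer of the kidney glomerulus. Type VIII collagen forms hexagonal nets, as in the membrane beneath the corneal endothelium, and is made by vascular cells. Col15a1 and Col18a1 are multiplexins, collagens with interrupted triple helices and sugar chains that sit at the border of the basement membrane, and the end of the Col18a1 protein is released as endostatin. The ovarian surface epithelium rests on a basement membrane of this kind.

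Col4a1 with Col4a2, and Col4a5 with Col4a6, stand in head-to-head couples on opposite strands, and the sequences around their start sites are shown to give this layout. Its part in the values that follow was not tested. In GRCm38.p6, the start of the RefSeq transcript of Col4a1 (minus strand) lies at position 11312826 of chromosome 8 and that of Col4a2 (plus strand) at 11312805, so that the first exons overlap by 22 bases, 0.295% of the exon bases of Col4a1 and 0.332% of those of Col4a2. These 22 bases are in capitals in the stretch of the plus strand at chr8:11312801-11312830.
Col4a1 and Col4a2 start sites: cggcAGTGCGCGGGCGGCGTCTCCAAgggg
Col4a6 (minus strand) starts at 141474076 of chromosome X and Col4a5 (plus strand) at 141475419, 1343 bases away. The 250 bases before each start follow, 5′ to 3′ on the strand of the gene, at chrX:141475169-141475418 on the plus strand for Col4a5 and at chrX:141474077-141474326 on the minus strand for Col4a6. Capitals mark GTGGGAA, the sequence bound by Rbpj, the DNA-binding partner of Notch, in Col4a5, and the GC box CCCGCCC in Col4a6.
Col4a5: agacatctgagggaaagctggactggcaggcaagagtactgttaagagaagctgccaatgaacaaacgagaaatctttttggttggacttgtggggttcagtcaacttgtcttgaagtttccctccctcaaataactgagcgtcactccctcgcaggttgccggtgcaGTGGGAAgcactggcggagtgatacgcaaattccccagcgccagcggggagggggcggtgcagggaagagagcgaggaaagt
Col4a6: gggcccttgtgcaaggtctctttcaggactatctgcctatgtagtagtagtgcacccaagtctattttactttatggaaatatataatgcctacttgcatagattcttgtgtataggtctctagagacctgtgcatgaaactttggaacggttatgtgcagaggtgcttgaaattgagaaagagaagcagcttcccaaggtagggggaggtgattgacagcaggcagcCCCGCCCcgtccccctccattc

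RefSeq windows of 250 bases before and 50 after the start were given for 9 of the 10 members, all but Col4a3. GTGGGAA on either strand was found in the window of Col4a5, beginning at position -82 from the start site, and in none of the other 8. It was present in 6.38% of all 32851 promoter windows. CACGTG, the E-box of Hey factors, was found in no member window and in 7.15% of all windows. The GC box CCCGCCC, on either strand, was found in the windows of Col4a6, Col8a1 and Col8a2, in 1 of the 2 windows given for Col18a1, and in 25.6% of all windows. A match describes letters only, and none of these motifs contains another. The windows of Col4a1 and Col4a2 were rich in G and C (74.0% and 73.7%), while those of Col4a5 (52.7%) and Col4a6 (48.3%) lay near the median of all windows, 52.7%.

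Notch3 itself was counted first, as the check of the labels. In Sets 1 to 4 the Control lines had 38.65, 40.56, 70.79 and 41.99 normalized counts, and the Notch3IC lines 4319, 467.2, 9215 and 5839. To normalize, each read count was rescaled from the TMM-adjusted size of its library to the average size of the 8 libraries. Every Notch3IC library was above every Control library, and Notch3IC of Set 2 was the lowest of its group, with a log2 ratio to its own Control of 3.51 against 6.79, 7.01 and 7.10 in Sets 1, 3 and 4. The log2 fold change was 6.69 (SE 0.88, n = 4 per group, adjusted p = 0.0169, edgeR quasi-likelihood test). Reads from the insert and from the gene of the line cannot be told apart in these counts. Because Set 2 stands apart in this way, results that rest on it are given with and without it.

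Notch3IC lines held more RNA of Col15a1, Col18a1 and Col8a1, and none of the 10 genes was called lower. Calls needed an adjusted p under 0.1 together with a log2 fold change of 1 or more in either direction. Of the 10 members, 8 passed the expression filter, 3 were called higher and 0 lower, and the corresponding shares of the 12430 genes in the test were 3.4% higher and 0.74% lower. In the other 5, the log2 fold changes of Col4a1 and Col4a2 were positive and past 1 but their adjusted p-values were above 0.1, those of Col4a5 and Col4a6 were negative, and that of Col8a2 was smaller than its standard error. The median log2 fold change of the 8 tested members was 1.41, beside -0.01 for all genes tested. At an unadjusted p under 0.05 the test passed 5 members higher (11.8% of all genes tested) and 0 lower (6.65%), and DESeq2 called 5 higher (5.05% of all genes it tested) and 0 lower (1.37%). Within sets, 5 members were higher in Notch3IC in 4 of 4 sets (21.0% of all genes tested) and 2, Col4a5 and Col4a6, were lower in 4 of 4 (19.4% of all genes tested). With the set as a replicate block, 5 members were called higher, the additional ones being Col4a1 and Col4a2, where the block called 5.19% of all genes higher and 2.53% lower. The same 5 were called when Notch3IC of Set 2 was left out, a fit that called 5.58% of all genes higher and 2.42% lower. Without Set 3, or without Set 4, no member was called, although 4 had an unadjusted p under 0.05 in each case, and edgeR then called 1 and 0 genes higher among all tested. The plot of normalized counts shows each member by library.

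**Figure D1:**
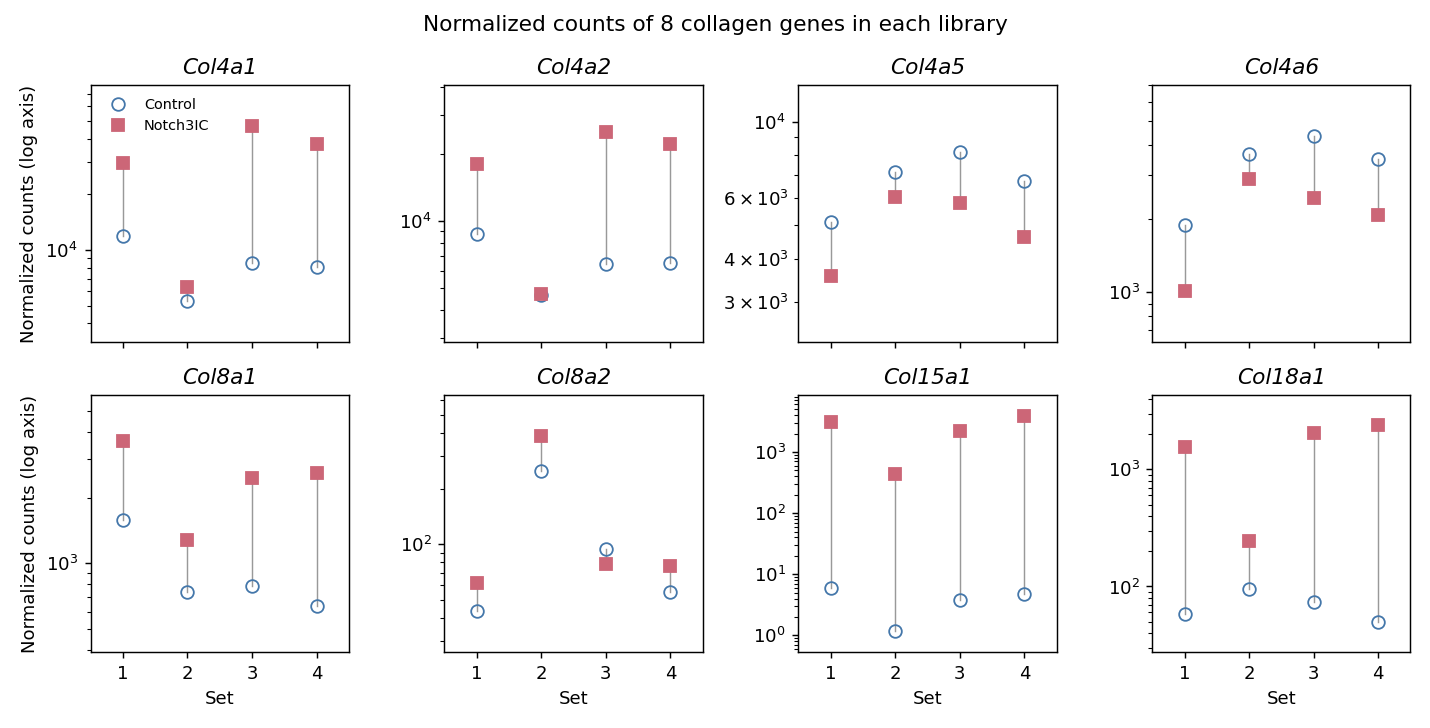
Normalized counts (log axis, range set for each gene) of the 8 tested members by set, with open circles for Control, filled squares for Notch3IC and a line joining the libraries of a set. Col15a1 and Col18a1 have no overlap between groups, while the Notch3IC square lies below the Control circle of Col4a5 and Col4a6 in every set.

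Col15a1, a multiplexin of the basement membranes of muscle and vessels, showed the widest gap of the members. Its reads numbered 6, 1, 4 and 6 in Control, Sets 1 to 4, and 2748, 293, 2432 and 4559 in Notch3IC. Every Notch3IC library was far above every Control library, and Set 2 was again the lowest of its group. Mean normalized counts were 3.93 ± 2.02 for Control and 2396 ± 1468 for Notch3IC (SD, n = 4 each). The log2 fold change was 9.16 (SE 0.85, adjusted p = 0.0116, edgeR). Because the Control counts are few, the size of the ratio is better read from the counts themselves: 17 reads in Control and 10032 in Notch3IC over the 4 sets, a 637-fold difference after scaling, with an exact 95% interval of 398 to 1094 that covers counting error only, as do all such intervals here. Within sets the ratio was 517-fold (237 to 1409), 360-fold (64.0 to 14253), 584-fold (228 to 2146) and 810-fold (372 to 2207), and these intervals overlap. On the scale of TMM-scaled CPM per kilobase of exon, a level that allows genes to be compared, Col15a1 averaged 0.0265 ± 0.0136 in Control and 16.2 ± 9.91 in Notch3IC (SD, n = 4 each), the latter at the 71.2 percentile of tested genes. It entered the test through its Notch3IC counts, and was not tested when 10 counts were required in every library. The adjusted p passed the threshold in all 8 fits that left out 1 library, and was 0.000161 without Set 2, 0.215 without Set 3 and 0.218 without Set 4. In the last 2 fits the call was lost while the log2 fold change was 9.165 and 8.938. In GENCODE M21 (GRCm38) an antisense gene overlaps 0.221% of the exon bases of Col15a1, and among the members such overlaps reach at most 5.649%, in Col4a3.

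Col18a1, the source of endostatin, had 59, 79, 77 and 63 counts in Control and 1387, 167, 2233 and 2826 in Notch3IC. The groups did not overlap, and Set 2 was the low library of the Notch3IC group by a wide margin. Normalized means were 69.07 ± 19.45 (SD, n = 4) and 1558 ± 941 (SD, n = 4), a log2 fold change of 4.51 (SE 0.65, adjusted p = 0.0182, edgeR). Within sets the ratio was 26.5-fold (20.4 to 35.0), 2.59-fold (1.97 to 3.44), 27.9-fold (22.2 to 35.4) and 47.8-fold (37.2 to 62.4). The interval of Set 2 lies below those of the other sets. Per length, the level went from 0.422 ± 0.119 to 9.52 ± 5.75 (SD, n = 4 each), that is from the 9.46 to the 56.5 percentile of tested genes. Adjusted p was 0.000835 without Set 2, 0.235 without Set 3 and 0.238 without Set 4. Without Set 3 the log2 fold change was 4.379, and without Set 4 it was 4.095. In the Notch3IC libraries the per-length level of Col15a1 was 2.19, 1.94, 1.2 and 1.78 times that of Col18a1. On these exon lengths, the multiplexin that was lower in Control was thus the higher of the couple in every Notch3IC library. Other lengths would change these ratios, of which that of Set 3 is the closest to equal. Groups did not overlap for these 2 members, against 7.08% of all genes tested with Notch3IC higher, and for no member was Notch3IC wholly below Control, against 3.75%.

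Col8a1, a chain of the type VIII net, rose in Notch3IC. It stood at 1580, 736.1, 784.4 and 639.4 normalized counts in Control and 3626, 1281, 2450 and 2594 in Notch3IC. The groups overlapped only through the Control library of Set 1, which lay above the Notch3IC library of Set 2, and each Notch3IC library was above the Control of its own set. The log2 fold change was 1.41 (SE 0.37, adjusted p = 0.0818, edgeR), with log2 ratios within sets of 1.20, 0.80, 1.64 and 2.02. The call is close to its threshold: leaving out 1 library gave adjusted p-values from 0.02 to 0.235 and ended the call in 6 of 8 cases, and it was 0.0571 without Set 2, 0.438 without Set 3 and 0.54 without Set 4. The direction did not change in any of these, and the log2 fold change was 1.345 without Set 3 and 1.251 without Set 4.

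Col8a2, the partner chain of type VIII collagen, was counted far less and was not called. It had 43.6, 248.2, 94.7 and 55.47 normalized counts in Control and 61.48, 385.1, 78.12 and 75.99 in Notch3IC. Both libraries of Set 2 were the highest of their groups, and the groups overlapped. The log2 fold change was 0.44 (SE 0.75, adjusted p = 0.821, edgeR), with a ratio below 1 in Set 3 (0.825, 0.61 to 1.11) whose interval includes 1. Without Notch3IC of Set 2 the log2 fold change was -0.61 (adjusted p = 0.604), without both libraries of Set 2 it was 0.16 (adjusted p = 0.843), and with the replicate block it was 0.33 (adjusted p = 0.264).

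The type IV chains split into 3 couples. Col4a1 and Col4a2, the chains of the most widespread trimer, had the highest mean levels per length in Notch3IC, although in Set 2 Col4a5 (38.6) lay above Col4a1 (36.3) and Col4a2 (30.7). Col4a1 stood at 11896, 5279, 8465 and 8042 normalized counts in Control and 29757, 6315, 46915 and 37561 in Notch3IC. Each Notch3IC library was above its own Control, but Set 2 was higher by only 1.2-fold (1.15 to 1.25) against 2.5-fold, 5.54-fold and 4.67-fold in Sets 1, 3 and 4, and its Notch3IC library lay below 3 of the 4 Controls. The means were 8421 ± 2714 and 30137 ± 17361 (SD, n = 4 each), a log2 fold change of 1.84 (SE 0.54, adjusted p = 0.109, edgeR), which was not called. With the set as a replicate block it was 1.58 (SE 0.39, adjusted p = 0.0543) and called, and without Notch3IC of Set 2 it was 2.18 (adjusted p = 0.00385). Without Set 3 the adjusted p was 0.559 and without Set 4 it was 0.603.

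Col4a2 ran parallel. It had 8777, 4655, 6407 and 6516 normalized counts in Control and 18017, 4732, 25064 and 22218 in Notch3IC. In Set 2 the 2 lines were alike within counting error (1.02-fold, 0.97 to 1.07), and in the other sets the Notch3IC library was 2.05 to 3.91 times its Control. The log2 fold change was 1.41 (SE 0.45, adjusted p = 0.141, edgeR), which was not called; it was 1.21 (adjusted p = 0.0684) with the replicate block and 1.72 (adjusted p = 0.0038) without Notch3IC of Set 2. Its adjusted p was 0.62 without Set 3 and 0.671 without Set 4. Over the 8 libraries the log2 normalized counts of Col4a1 and Col4a2 had a Pearson correlation of 0.998, a description over libraries that share sets and conditions.

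The ratio of Col4a1 to Col4a2 was higher in Notch3IC within every set, but its difference between groups did not pass a permutation test at p under 0.05, the limit used for this ratio. The count of Col4a1 over that of Col4a2 was 1.355, 1.134, 1.321 and 1.234 in Control and 1.652, 1.335, 1.872 and 1.691 in Notch3IC. In Sets 1, 3 and 4 the Notch3IC library lay above every Control, and Set 2 lay within the range of the Controls. The mean log2 ratio was 0.33 ± 0.12 in Control and 0.70 ± 0.21 in Notch3IC (SD, n = 4 each), a difference of 0.37 (two-sided exact permutation test over 70 arrangements, p = 0.0571, the smallest possible being 0.0286). The difference had the same sign in all 4 sets, from 0.235 to 0.503, where an exact sign-flip permutation test cannot go below p = 0.125. Without Notch3IC of Set 2 the difference was 0.464 (exact permutation p = 0.0286, the smallest that 35 arrangements allow), and without both libraries of Set 2 it was 0.414 (exact permutation p = 0.1, also the smallest possible).

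Col4a5 and Col4a6, the couple on chromosome X, were lower in Notch3IC in 4 of 4 sets without passing the test. Col4a5 had 5117, 7153, 8171 and 6739 normalized counts in Control and 3578, 6053, 5807 and 4637 in Notch3IC. The groups overlapped because the Control of Set 1 lay below Notch3IC of Sets 2 and 3. Its log2 fold change was -0.44 (SE 0.20, adjusted p = 0.288, edgeR), and the ratio to Control ran from 0.688 to 0.846 within sets, each interval lying below 1. Col4a6 had 1886, 3652, 4346 and 3483 normalized counts in Control and 1009, 2903, 2418 and 2067 in Notch3IC. Its groups also overlapped, through the low Control of Set 1, and Set 2 again showed the smallest step. Its log2 fold change was -0.67 (SE 0.34, adjusted p = 0.343, edgeR), with ratios of 0.535, 0.795, 0.556 and 0.593 within sets. With the replicate block both had an adjusted p under 0.1 (Col4a5 0.0275, Col4a6 0.0263) but stayed under the fold limit, where 12.1% of all genes were lower at that p with no fold limit. The correlation of Col4a5 with Col4a6 over the 8 libraries was 0.98, and that of Col4a5 with Col4a1 was -0.668.

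Col4a3 and Col4a4, the chains of the glomerular trimer, were scarcely counted and were not tested. Col4a3 had 2, 5, 1 and 2 counts in Control and 2, 3, 2 and 3 in Notch3IC. Col4a4 had 0, 2, 0 and 4 in Control and 0, 0, 2 and 0 in Notch3IC. A library with 0 counts still allows up to 3, so a small difference, or a fall, could not be detected in either gene at this depth. DESeq2 gave Col4a3 a log2 fold change of 0.07 (SE 0.98, adjusted p = 0.984) and Col4a4 no adjusted p. The log2 ratios within sets are drawn for the 8 tested members.

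**Figure D2:**
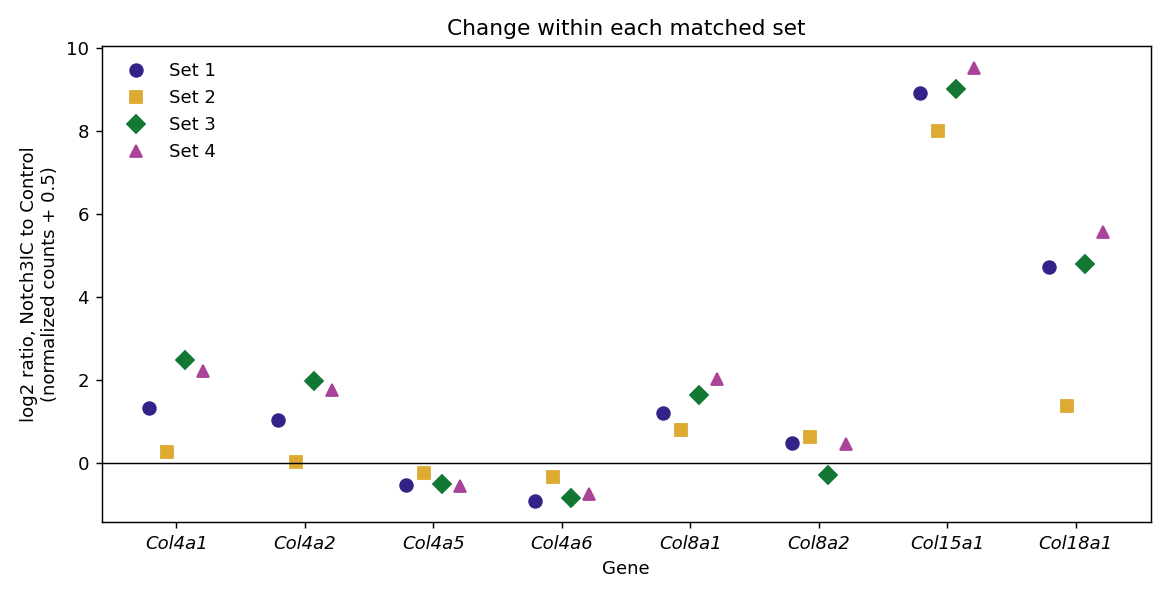
Log2 ratio of Notch3IC to Control within each of Sets 1 to 4 for the 8 tested members, from normalized counts plus 0.5, with 1 symbol per set. Set 2 is the set nearest to 0 for all of them but Col8a2, with 0.02 for Col4a2 and 1.37 for Col18a1 against 1.04 to 1.97 and 4.72 to 5.57 in Sets 1, 3 and 4.

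Levels per kilobase of exon give the makeup of type IV collagen RNA, for which no test was run. Col4a1 averaged a level of 48.4 ± 15.6 CPM per kilobase in Control and 173 ± 99.7 in Notch3IC, Col4a2 42.7 ± 10.9 and 113 ± 58.3, Col4a5 43.4 ± 8.11 and 32.0 ± 7.29, and Col4a6 18.0 ± 5.59 and 11.3 ± 4.32 (SD, n = 4 each). In Control, the ranges of Col4a1, Col4a2 and Col4a5 overlapped. On the exon lengths used, Col4a1 was 1.2, 1.01, 1.17 and 1.09 times Col4a2 in Sets 1 to 4. Col4a3 and Col4a4 were at 0.0113 and 0.00561 in Control. Col4a1 and Col4a2 together made up 74.5%, 48.1%, 54.4% and 58.9% of the type IV level in the Control libraries and 91.1%, 55.2%, 89.6% and 89.8% in the Notch3IC libraries. The share was higher in Notch3IC than in Control within each set, and Notch3IC of Set 2 overlapped the Controls. The summed type IV level was 168, 126, 166 and 150 in Control and 316, 121, 482 and 400 in Notch3IC, so that Set 2 alone was not higher.

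**Figure D3:**
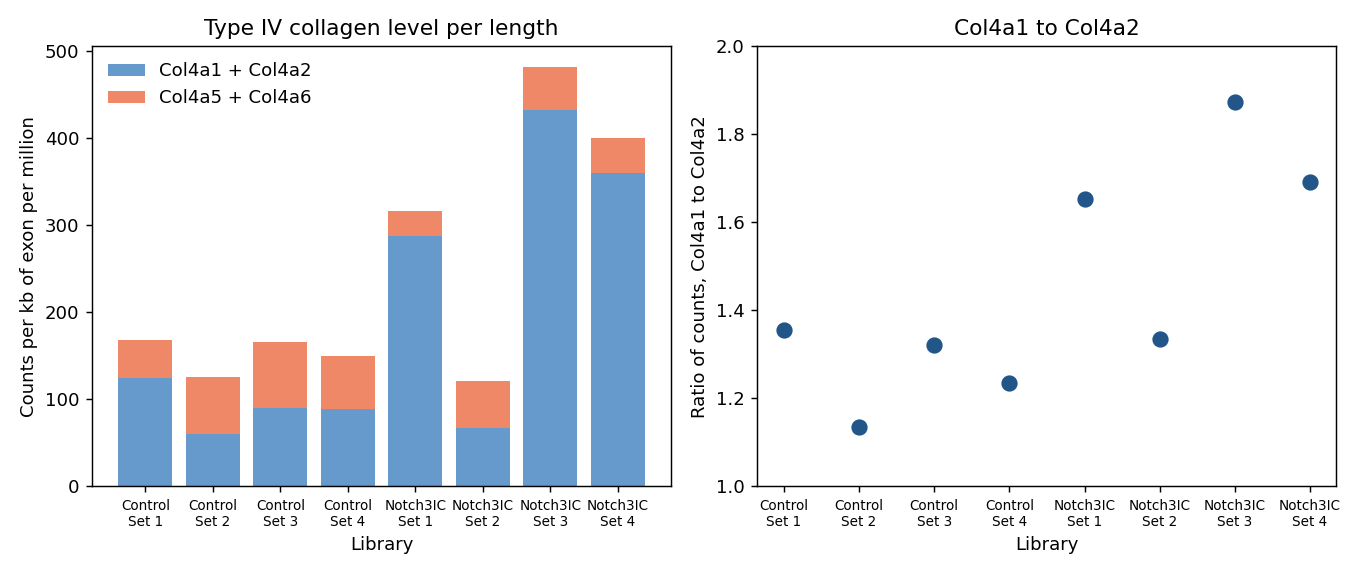
Left, stacked bars of the level of type IV chains in each library (TMM-scaled CPM per kilobase of exon) with Col4a1 plus Col4a2 below and Col4a5 plus Col4a6 above; right, the ratio of Col4a1 to Col4a2 counts in each library, on an axis that starts at 1. The tallest bars, 316 to 482, and the highest ratios, 1.652 to 1.872, are those of Notch3IC in Sets 1, 3 and 4.

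Outside the 10 members, the genes whose log2 normalized counts followed a member most closely over the 8 libraries are named as a description. For Col15a1 these were Cdh15 (Pearson 0.9976), a cadherin of muscle, Pde1b (0.9972), a phosphodiesterase, and 4833422C13Rik (0.9898). Those most like Col18a1 were Rcn1 (0.9971), a calcium-binding protein of the endoplasmic reticulum, Ctif (0.9969) and Snai2 (0.9937), a transcription factor known for its part in the epithelial-to-mesenchymal transition. Rgs16 (0.995), a regulator of G-protein signaling, Podnl1 (0.9914) and 9430020K01Rik (0.9905) were nearest to Col8a1, and Slc37a2 (0.9892), Strn (0.9862) and Prkce (0.9851) to Col4a1, whose closest gene of all was its partner Col4a2 (0.998). With 8 libraries in 2 groups, any gene that differs strongly between the groups correlates with a member that does so too. Not all genes named differed strongly: Strn had mean normalized counts of 1585 in Control and 1808 in Notch3IC. Cdh15 (0.933 and 2254) and Pde1b (1.18 and 844) were scarcely counted in Control, as was Col15a1.

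Other genes of the basement membrane gave 5 higher and 1 lower among 22 tested of 33 found, where 12 log2 fold changes were positive and 10 negative and the median log2 fold change was 0.345. Of all genes tested, 3.4% were called higher and 0.74% lower, and 48.4% had a positive log2 fold change. With the replicate block the shares of all genes were 5.19% higher and 2.53% lower. The higher ones were Smoc1 (log2 fold change 5.12, edgeR adjusted p = 0.0181), a calcium-binding matrix protein, Papln (2.69), Lama4 (1.53), a laminin chain of vessels, Fbln1 (1.39) and Ntn4 (1.07), a netrin. Tinagl1, a matricellular protein, was the lower one (-1.39, adjusted p = 0.0387). Within Set 2 the log2 ratios were 2.43 for Smoc1, 0.29 for Papln, -0.12 for Lama4, 0.935 for Fbln1 and 0.04 for Ntn4. That of Tinagl1 was -0.15. Smoc1 had only 3 to 20 counts in Control. Sparc (0.38) and Fbln2 (0.81), the 2 with the highest level, were not called. The count of higher genes ranged from 1 to 6 when 1 library was left out, and the replicate block called 6 higher and 3 lower. Under the block Ntn4 lay below the fold limit (0.97), while Lama1 (1.92, edgeR adjusted p = 0.0293) and Ntn1 (1.23, adjusted p = 0.0277) were gained as higher, and the laminin chain Lama5 (-1.30, adjusted p = 0.00874) and Fras1 (-1.65, adjusted p = 0.0877) as lower.

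Of the genes for folding, modification, secretion and cross-linking of collagen, 4 of 23 tested were higher and 0 lower, with 20 positive and 3 negative and a median log2 fold change of 0.30. For this list, the receptors and the proteases, the shares of all genes tested were 3.4% higher, 0.74% lower and 48.4% positive. With the block they were 5.19% higher and 2.53% lower. Pxdn (1.34, edgeR adjusted p = 0.0383), the peroxidase that makes the sulfilimine bonds between type IV trimers, rose together with the lysyl oxidases Loxl1 (2.28) and Loxl3 (1.40) and with Creb3l1 (1.36), a transcription factor that activates collagen genes. In Set 2 the log2 ratios were 0.31 for Pxdn, 1.18 for Loxl1, 0.37 for Loxl3 and 0.33 for Creb3l1. P4hb (-0.03) and Serpinh1 (0.08), the hydroxylase subunit and the collagen chaperone with the highest levels, were not called, and Mia3 was listed at 0 in all 8 libraries. Of the receptors, 5 of 16 tested were higher and 1 lower, with a median of 0.14. Itga1 (3.86), a subunit of a receptor for type IV collagen, Itga11 (3.47), Itga7 (2.97), Itgb3 (2.59) and Itgb5 (1.65) rose, and Itga3 (-1.25), a laminin receptor subunit, fell. In Set 2 the log2 ratios were 0.73, 2.14, 0.48, 0.10, 0.37 and -0.32, in the same order. Itgb1 (0.14) and Ddr1 (-0.27) were not called, and the replicate block called 5 higher and 2 lower, adding the laminin receptor Bcam (-1.39). Of the proteases and inhibitors, 2 of 15 tested were higher and 0 lower, Mmp14 (1.27) and Bmp1 (1.60), which processes procollagen, while Timp2 (-0.13) and Timp3 (-0.29) were not called and the median was 0.34. With the block 3 of these were called higher, Plat (1.27) being added, and 2 lower, the matrix metalloproteinases Mmp13 (-1.82) and Mmp3 (-1.37). In Set 2 the log2 ratios of Mmp14 and Bmp1 were 0.23 and 0.40.

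Among the 33 other collagens, 17 were tested, 16 had a positive log2 fold change and 1 a negative one, and the median was 1.05. Over all genes tested, 48.4% had a positive log2 fold change. The edgeR fit called 3.4% of them higher (5.19% with the block) and 0.74% lower (2.53% with the block). Col3a1 (1.30, edgeR adjusted p = 0.0818), Col5a3 (4.46, adjusted p = 0.0382), Col6a3 (4.03, adjusted p = 0.0964) and Col14a1 (3.90, adjusted p = 0.025), a fibril-associated collagen, were called higher and none was called lower, and the replicate block called 10. Col14a1 had 3 to 8 counts in Control and entered the test through its Notch3IC counts. In Set 2 the log2 ratios were 0.39 for Col3a1, 1.59 for Col5a3, 2.56 for Col6a3 and 2.33 for Col14a1. The 10 members made up 11.2%, 10.4%, 16.5% and 18.5% of all collagen counts in the Control libraries and 11.1%, 8.62%, 21.0% and 16.7% in the Notch3IC libraries. These shares overlapped, were higher in Notch3IC in Set 3 and lower in Sets 1, 2 and 4.

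**Figure D4:**
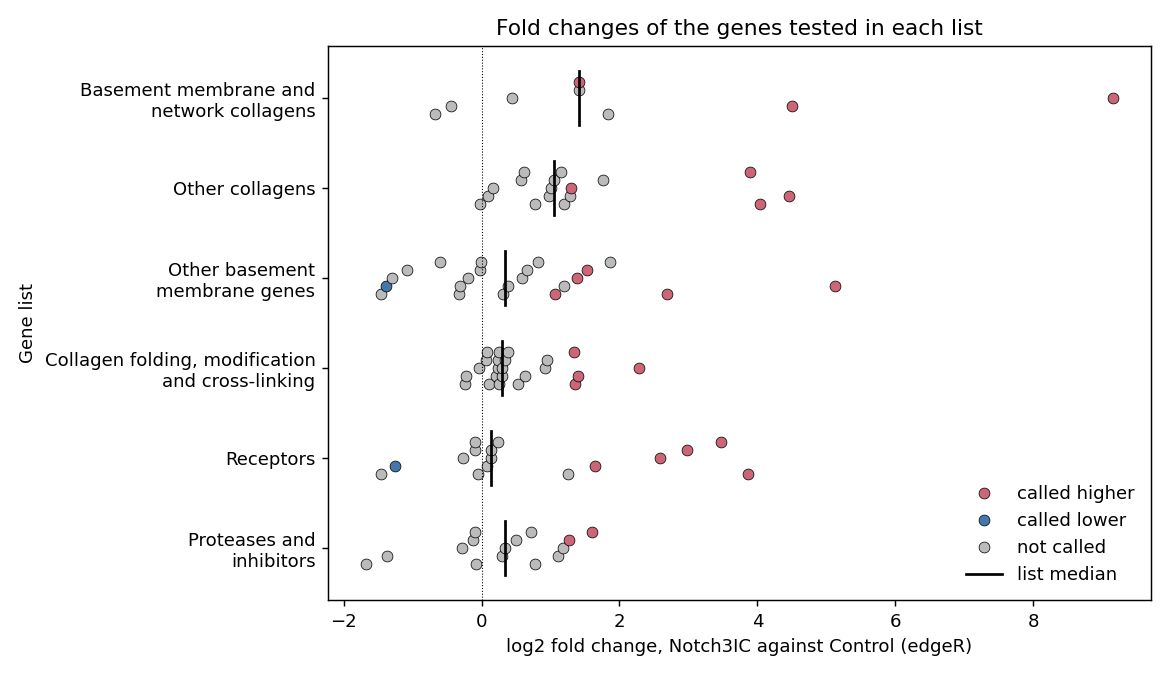
Log2 fold change, Notch3IC against Control, of each tested gene among the members and in 5 gene lists, with red for genes called higher, blue for lower and grey for not called; thick lines are list medians and the dotted line is 0. The median is 1.41 for the 8 tested members and 1.05 for the 17 other collagens tested.

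Markers of cell types that a culture could hold were counted in the same libraries, and their part in these results was not tested. In bulk RNA, fewer cells of a type and less RNA per cell cannot be told apart. For every marker list, the shares of all genes tested were 3.4% higher, 0.74% lower and 48.4% with a positive log2 fold change. With the replicate block they were 5.19% higher and 2.53% lower. Of the 12 mesothelial and ovarian surface epithelial markers tested of 15, 0 were called higher and 2 lower (Upk1b -2.19, Msln -2.60), 11 had a negative log2 fold change and the median was -0.84, while the replicate block called 6 lower. Their summed level was 443, 684, 1062 and 1054 in Control and 165, 443, 414 and 326 in Notch3IC. Upk3b was the most abundant of them in the mean of each group, but in Notch3IC of Set 1 it made up only 12.1 of 165. The labelled tissue is ovarian surface epithelium, and 12 of these 15 markers passed the expression filter. Among those well counted were Wt1 (12328 normalized counts in Control, 7078 in Notch3IC), Krt19 (4454 and 1027), Gata6 (4203 and 2290) and Krt8 (3318 and 1988). Cdh2 (5581 and 5900), also well counted, was not lower (log2 fold change 0.08) and was not called. Krt7, Epcam and Pax8 did not pass the filter. Of the mural markers, 6 of 11 were tested and Pdgfrb (5.99), Cspg4 (4.20) and Mcam (3.73) were called higher, 5 with the block. Their summed level, 656, 218, 138 and 56.5 in Control and 1480, 351, 511 and 369 in Notch3IC, was mostly Acta2, which was not called with condition alone (1.24, adjusted p = 0.462) and was called higher with the replicate block (1.45, adjusted p = 0.0362). Of the endothelial markers 5 of 12 were tested, Flt1 (5.98) was higher, Esam (-1.64) was lower, and Cldn5 and Erg had 0 counts in all 8 libraries. The endothelial sum was 9.51, 14.3, 18.2 and 18.3 in Control and 16.1, 5.92, 18.9 and 16.2 in Notch3IC. Esam led this sum in Control (mean level 14.3, against 0.139 for Flt1) and Flt1 in the Notch3IC mean (8.88, against 4.58 for Esam), but in Notch3IC of Set 2 Esam made up 4.16 of 5.92. Leukocyte markers summed to between 1.77 and 4.27 in all libraries, with Cd68 the most abundant, and Cd3e and Emr1 at 0 counts in all of them. Of these 12 markers 2 were tested and 1, Csf1r (1.52), was called, on 7 to 10 counts in Control and 10 to 36 in Notch3IC. Of the 10 fibroblast markers 6 were tested, Fap (7.99) was higher and Pdpn (-1.20) lower. Fap had 0 to 5 counts in Control and 29 to 1389 in Notch3IC, and entered the test through the latter. The fibroblast sum was 896, 711, 580 and 583 in Control and 1018, 743, 703 and 721 in Notch3IC. Vim was the most abundant, and Mfap5 had 0 counts in all libraries.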

How the data were processed

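Polyadenylated RNA of the 8 lines was sequenced by the authors as single-end reads of 100 bases. The authors deposited raw read counts per gene symbol, 1 table per library, without normalization. The submitters' processing notes name TopHat, Cufflinks, DESeq and the mm9 build. The gene annotation and the strand setting of the counting are not given in the sources used here, so reads of overlapping antisense genes cannot be told apart. No column of per-sample values was left unused.

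Notch3IC was compared with Control by edgeR 4.0.16 in R 4.3.3: TMM normalization, filterByExpr by condition, a robust quasi-likelihood fit with no term but condition. The study's methods name no set term, so this fit leaves out the pairing of the lines. The replicate block, which includes it, is the alternative. P-values of the 12430 genes tested were adjusted by Benjamini-Hochberg. Thresholds, an adjusted p of 0.1 and a log2 fold change of 1, are those of the study's methods. The standard error is the size of the log2 fold change divided by the square root of F. The members, lists and tests were chosen with earlier results of these data known. Named genes are the 10 members, Notch3, the called genes and the 2 of highest level in each pathway list, other called collagens, and the 3 genes closest to Col15a1, Col18a1, Col8a1 and Col4a1. Marker genes called and the most abundant of each marker list are named too. Lama1, Lama5, Ntn1, Fras1, Bcam, Plat, Mmp3, Mmp13, Wt1, Krt19, Gata6, Krt8, Cdh2, Krt7, Epcam, Pax8 and the list genes with 0 counts were named after their values were seen.

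Log2 ratios within sets used a pseudocount of 0.5. Fold ratios within sets and their exact intervals, binomial and conditional on the sum of both counts, used none. Levels per length used exon lengths of GENCODE M21 (GRCm38, a later build than that of the counts), which matched 20882 symbols directly and 1943 through synonyms. The lengths cover the exons of all transcripts of a gene, and ratios of levels between genes depend on this choice. Promoter sequences are from RefSeq (GRCm38.p6). The methods describe each set as matched lines. Across genes, the 2 libraries of a set deviated together from the means of their groups (correlations of 0.794, 0.408, 0.573 and 0.432 for Sets 1 to 4), while libraries of unlike sets gave -0.511 to 0.4, so the set numbers were taken to pair the libraries. The biological coefficient of variation was 26.27% with condition alone and 14.08% with the block. The p-values measure the spread between lines derived from 1 cell line. Alternatives were DESeq2 1.42.0, other scalings and filters, the replicate block, other thresholds, another pseudocount, and leaving out each library or set. The code was tested on simulated data. Figures and permutation tests used Python 3.11.15, SciPy 1.17.1 and Matplotlib 3.10.9.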

Additional observations from a re-analysis of the deposited data

Results flagged for a closer look

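In 26 groups of 4 libraries, those of the 10 members, Notch3, the library totals and the Col4a1 to Col4a2 ratio in each condition, 4 met Dixon's 95% criterion on the gap between a library and the other 3, divided by the range of the group, and chance gives about 1.3. Col4a4 stood at 1.838 normalized counts, from 2 reads, in Notch3IC of Set 3 and at 0 in the other Notch3IC libraries. With the others at 0 any count meets the criterion, and 2 reads lie within the 3 that a count of 0 allows, so nothing is read from it. Col8a1 stood at 1580 normalized counts in Control of Set 1 against 639.4 to 784.4 in the other Controls (gap 0.846). Col8a2 stood at 385.1 in Notch3IC of Set 2 against 61.48 to 78.12 in the other Notch3IC libraries (gap 0.949), and the Control of Set 2 was the highest Control. Notch3 stood at 70.79 in Control of Set 3 against 38.65 to 41.99 in the other Controls (gap 0.896).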

How the results depend on the processing

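Across 151 alternative values of the 8 tested members, 129 kept their direction and side of the threshold, 9 gained the threshold, 12 lost it and 1 reversed, Col8a2 without Notch3IC of Set 2 (-0.611, in a range of -0.611 to 1.203 with a library or set left out). The count of members called higher was 3; it was 5 with DESeq2 and 5 with the replicate block, 4 with no expression filter, where Col4a1 is added, 2 when 10 counts were required in every library, where Col15a1 is no longer tested, and 0 to 5 when a library or set was left out, being 0 without Set 3 or Set 4. Among all genes, 423 were higher and 92 lower. DESeq2 gave 708 and 192, the replicate block 645 and 315, an adjusted p under 0.05 gave 290 and 48, no fold limit gave 622 and 210, and leaving out a library or set gave 0 to 702 higher and 0 to 305 lower. Other basement membrane genes called higher numbered 1 to 6 with a library left out, 7 with DESeq2 and 6 with the block. Those called lower numbered 0 to 2 with a library left out, and 3 with DESeq2 or the block. Pairing by set changed the calls of Col4a1 and Col4a2 and of no other member. The difference in the Col4a1 to Col4a2 ratio ranged from 0.301 to 0.464, past its limit of p under 0.05 only at the highest value, without Notch3IC of Set 2. With a set left out the exact permutation test cannot go below p = 0.1, and the sign-flip test not below 0.125. Neither could pass that limit. With a pseudocount of 5 the log2 ratios of Col15a1 in Sets 1 to 4 were 8.135, 6.131, 7.988 and 8.626. The causes of these changes were not tested. Depth limits Col4a3, Col4a4 and the Control values of Col15a1, which rest on at most 6 counts. Outside the members it also limits the Control values of Fap (0 to 5 counts), Col14a1 (3 to 8), Csf1r (7 to 10) and Smoc1 (3 to 20).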
